A study of Mus musculus with 6 samples.

Results

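The guanylate binding proteins (GBPs) and immunity-related GTPases (IRGs) are families of enzymes that cells make in response to interferon-gamma (IFN-γ). The 10 genes described here are 5 GBPs (Gbp2, Gbp3, Gbp6, Gbp7 and Gbp8), 4 IRGs (Iigp1, Igtp, Irgm1 and Irgm2) and Irf1, the transcription factor through which IFN-γ signalling reaches many of them. Each was found by its exact gene symbol among 55487 listed genes, each symbol occurred once, and all 10 were among the 14650 genes kept by the filter on low counts. The RNA came from colon epithelial cells (IECs) of C57BL/6J mice that had 2% dextran sodium sulphate (DSS) in their drinking water, a chemical that damages the lining of the colon and so produces colitis. Of the 6 libraries, 3 were labelled WT. They are called Nsd2 f/f here, as the study names the controls of its RNA-seq, which are mice with loxP sites around Nsd2 and no Cre. The other 3 were labelled NSD2-FF-VILCRE and are called Nsd2 Vil-KO here, from littermates whose Villin-Cre transgene deletes Nsd2 in intestinal epithelium. Nsd2 encodes a methyltransferase for lysine 36 of histone H3. All 6 libraries came from DSS-treated mice, so none gives a level without colitis, and the sources used here do not give the day of DSS on which the RNA was taken or the sex behind each library. Per the methods of the study, DSS was started at an age of 2 months in its colitis model. Villin-Cre acts in epithelium only, so blood and stromal cells in the preparation still carry Nsd2.

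IFN-γ, made mainly by T cells, NK cells and innate lymphoid cells, binds a receptor of Ifngr1 and Ifngr2 chains and activates the kinases Jak1 and Jak2. The signal reaches GAS elements in the genome, among them one in front of Irf1. Irf1, and complexes that contain Stat2 and Irf9, bind ISRE elements in front of GBP and IRG genes. GBPs are large GTPases that assemble on the vacuoles of parasites and on cytosolic bacteria. Among the IRGs, Iigp1 is an effector that damages vacuoles, whereas Irgm1, Irgm2 and Igtp (Irgm3) sit on the cell's own membranes and hold the effectors inactive there. Socs1 and Socs3 are induced inhibitors of JAK-STAT signalling.

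Promoters are shown because GAS and ISRE elements lie in front of many genes that answer to interferon. Reference promoters from RefSeq (GRCm38.p6) were matched for 7 of the 10 genes, with no entry for Gbp6 and Gbp8, and that of Iigp1 is not shown. The 250 bases before each start site were searched on both strands for the GAS letters TTCNNNGAA, which read alike on both strands, and for the ISRE letters, GAAA, any 2 bases and GAAA again (TTTC, any 2 bases and TTTC on the opposite strand). The GAS letters occurred in 7.02% and the ISRE letters in 2.98% of all 32851 RefSeq promoters of that length. Of the 7 promoters, that of Irf1 held GAS letters only, those of Gbp7, Igtp and Irgm2 held both, and those of Gbp2, Gbp3 and Irgm1 held ISRE letters only. For Gbp3 and Irf1, which have more than one listed start site, this refers to the first, and the window of the other held none. A match of letters is not a measured binding site. In the sequences below, written 5′ to 3′ on the strand of the gene, capitals mark the GAS or ISRE letters, and the longer ones run over the whole 250 bases.
Irf1, chr11:53769764-53770013, plus strand: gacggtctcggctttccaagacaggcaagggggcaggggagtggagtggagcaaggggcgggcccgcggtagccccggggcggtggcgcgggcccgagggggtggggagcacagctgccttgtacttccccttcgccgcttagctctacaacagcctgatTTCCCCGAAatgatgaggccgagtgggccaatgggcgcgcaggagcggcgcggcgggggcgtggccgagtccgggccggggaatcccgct
Gbp7, chr3:142530086-142530335, plus strand: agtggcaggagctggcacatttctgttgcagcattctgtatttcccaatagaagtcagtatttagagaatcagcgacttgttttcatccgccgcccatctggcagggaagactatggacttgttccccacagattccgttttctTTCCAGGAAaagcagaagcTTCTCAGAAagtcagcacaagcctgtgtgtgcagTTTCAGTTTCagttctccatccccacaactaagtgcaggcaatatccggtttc
Igtp, chr11:58199306-58199555, plus strand: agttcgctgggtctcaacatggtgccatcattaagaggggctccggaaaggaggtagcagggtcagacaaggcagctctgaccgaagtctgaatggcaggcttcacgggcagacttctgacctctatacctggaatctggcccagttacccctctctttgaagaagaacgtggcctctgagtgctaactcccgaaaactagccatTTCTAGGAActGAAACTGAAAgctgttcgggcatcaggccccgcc
Irgm2, chr11:58214727-58214976, plus strand: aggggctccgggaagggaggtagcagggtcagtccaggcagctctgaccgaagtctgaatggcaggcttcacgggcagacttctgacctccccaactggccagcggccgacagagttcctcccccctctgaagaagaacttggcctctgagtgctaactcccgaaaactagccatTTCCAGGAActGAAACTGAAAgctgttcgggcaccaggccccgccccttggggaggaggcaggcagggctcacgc
Gbp2, chr3:142620594-142620623, plus strand: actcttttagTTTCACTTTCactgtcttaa
Gbp3, chr3:142559992-142560021, plus strand: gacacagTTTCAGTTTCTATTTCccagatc
Irgm1, chr11:48871428-48871457, minus strand: gtttcaaGAAATAGAAACCGAAActgattc

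The Irf1 window has GAS letters at 90 to 82 bases before the start site. Igtp and Irgm2 each have GAS letters followed closely by ISRE letters, at 45 to 25 and 75 to 55 bases before the start, and 59 of 60 bases around the ISRE are identical between them. In Gbp7 a pair of GAS matches, at 106 to 98 and 87 to 79, lies before the ISRE letters at 53 to 44. Gbp3 and Irgm1 each carry overlapping ISRE matches, at 45 to 30 and 30 to 15 bases before the start, and Gbp2 carries one at 59 to 50. These distances refer to RefSeq start sites. The GENCODE spans of Gbp2, Gbp3, Irgm1 and Irgm2, given below, begin further upstream. Their windows thus lie partly (Gbp2, Gbp3) or wholly (Irgm1, Irgm2) within the gene as GENCODE places it.

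**Figure D1:**
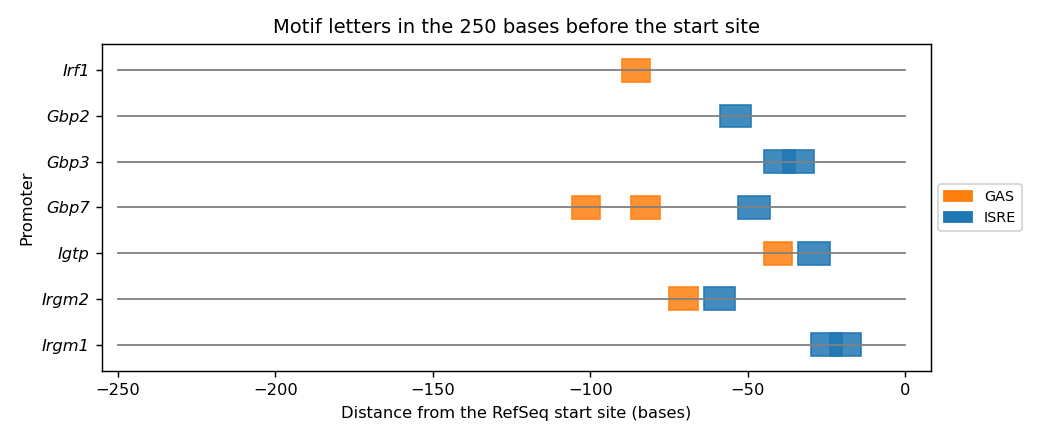
Positions of GAS (orange) and ISRE (blue) letters in the 250 bases before the first RefSeq start site of 7 genes. The x axis is the distance from the start site in bases. All matches lie within 106 bases of the start site, and Irf1 is the only one of the 7 with no ISRE letters.

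The loci lie in clusters. On GRCm38, Gbp2 (ENSMUSG00000028270, chr3:142620602-142638008), Gbp3 (ENSMUSG00000028268, chr3:142560026-142573209) and Gbp7 (ENSMUSG00000040253, chr3:142530342-142550149) are neighbours on chromosome 3. Gbp6 (ENSMUSG00000104713, chr5:105270702-105293698) and Gbp8 (ENSMUSG00000034438, chr5:105014150-105139540) lie in the other GBP cluster, on chromosome 5. Igtp (ENSMUSG00000078853, chr11:58199556-58207591) and Irgm2 (ENSMUSG00000069874, chr11:58199618-58222782) overlap in exons on the same strand of chromosome 11. The same chromosome holds Irgm1 (ENSMUSG00000046879, chr11:48861968-48871683) and Irf1 (ENSMUSG00000018899, chr11:53770014-53778374). Iigp1 (ENSMUSG00000054072, chr18:60376027-60392634) is on chromosome 18. Since members of both families resemble each other, the share of 75-base stretches of each gene's exons that also occur in another gene was counted. It was 67.3% for Gbp6, mostly shared with Gm43302 and Gbp10, 11.3% for Gbp7, 8.04% for Gbp8 and 7.80% for Igtp, and at most 4.78% for the other 6. The value of Gbp6 is therefore uncertain. Gbp8 overlaps exons of Gbp4 and Gbp9 on its own strand.

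The libraries held 15439123 to 20350539 counted reads, so 3 counts in one library correspond to 0.146 to 0.242 CPM, the counts scaled to a common library size with edgeR's TMM factors. In the order of replicates 1 to 3, as throughout, Nsd2 was at 47.9, 51.2 and 24.6 CPM in Nsd2 f/f and at 24.2, 10.4 and 20.8 CPM in Nsd2 Vil-KO. Its log2 fold change was −1.16 (SE 0.39, adjusted p = 0.992, edgeR quasi-likelihood test), with Nsd2 f/f replicate 3 close to Nsd2 Vil-KO replicate 1. Nelfa exons on the other strand overlap those of Nsd2. The libraries Nsd2 f/f replicate 3 and Nsd2 Vil-KO replicate 2 stood apart. They had 347 and 204 CPM of Xist, the RNA of the inactive X chromosome of females, against 0.0488 to 0.255 CPM in the other 4. Their mean Spearman correlations with the other libraries across the tested genes were 0.937 and 0.927, against 0.959 to 0.964. Mitochondrial genes took 19.6% of the counts in Nsd2 f/f replicate 3 and 5.51% to 9.13% in the others. Results are therefore given with and without these libraries. Nsd2 passed the criterion of the study's screen (fold change above 1.2 and unadjusted p below 0.05) in the 6 libraries, in the 4 libraries without Xist transcripts (−1.13, SE 0.14) and with a covariate for Xist (−1.17, SE 0.14). It no longer passed without Nsd2 f/f replicate 1 (−1.04) or Nsd2 f/f replicate 2 (−0.97), or when scaled by library size only (−1.12). Each genotype holds one of them, so sex, or whatever else sets them apart, is not aligned with genotype, but sex and the other properties of these 2 libraries cannot be told apart. The labels do not say that each library came from a separate mouse, in which case p-values measure only the spread between these samples, which may be technical.

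The 10 genes moved together from library to library, and they did so across both genotypes. The level of Irf1, the regulator, was 338.8, 248.1 and 123.2 CPM in the Nsd2 f/f libraries and 274.6, 84.9 and 245.0 CPM in Nsd2 Vil-KO. Nsd2 f/f replicate 3 and Nsd2 Vil-KO replicate 2 were the lowest of the 6 libraries, the latter below the former, and the other 4 lay within 245.0 to 338.8 CPM. The genotype means were 236.7 ± 108.2 and 201.5 ± 102.0 CPM (SD, n = 3).

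Iigp1, the IRG effector, spanned the widest range of the 10. It stood at 202.1, 174.8 and 0.162 CPM in the Nsd2 f/f libraries and at 130.3, 32.7 and 225.0 CPM in Nsd2 Vil-KO. The value of 0.162 CPM rests on 2 counts, whereas Nsd2 f/f replicate 1 had 4079. The ratio of these libraries was 1251, with a 95% exact interval of 346 to 10332 that covers counting error only. The highest library was a Nsd2 Vil-KO library, and the genotype means of 125.7 ± 109.6 and 129.3 ± 96.2 CPM (SD, n = 3) lay within each other's spread.

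The regulatory IRGs differed less between libraries. Igtp was at 181.1, 183.2 and 12.2 CPM in Nsd2 f/f and at 132.1, 24.0 and 175.6 CPM in Nsd2 Vil-KO. Irgm1 was at 216.9, 279.0 and 49.1 CPM in Nsd2 f/f and at 148.0, 61.1 and 205.9 CPM in Nsd2 Vil-KO. Irgm2 was at 168.1, 205.9 and 21.9 CPM in Nsd2 f/f and at 142.7, 31.8 and 167.6 CPM in Nsd2 Vil-KO. In all 3 genes the libraries fell into the same order at the bottom, with Nsd2 f/f replicate 3 lowest and Nsd2 Vil-KO replicate 2 next. The highest library was Nsd2 f/f replicate 2 in each, and its excess over the lowest was 15.0-fold for Igtp, 9.40-fold for Irgm2 and 5.68-fold for Irgm1.

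Among the GBPs of chromosome 3, Gbp2 was at 272.4, 127.7 and 11.1 CPM in Nsd2 f/f and at 109.3, 19.1 and 177.0 CPM in Nsd2 Vil-KO. Gbp3 was at 57.8, 97.1 and 3.64 CPM in Nsd2 f/f and at 18.3, 6.77 and 30.4 CPM in Nsd2 Vil-KO. Gbp7 was at 56.7, 56.2 and 5.98 CPM in Nsd2 f/f and at 37.7, 17.6 and 47.7 CPM in Nsd2 Vil-KO. Each gene was again lowest in Nsd2 f/f replicate 3 and second lowest in Nsd2 Vil-KO replicate 2. For Gbp3 and Gbp7, Nsd2 f/f replicates 1 and 2 both exceeded all 3 Nsd2 Vil-KO libraries, and the margin was wider for Gbp3. Over all replicates Gbp3 had means of 52.8 ± 46.9 and 18.5 ± 11.8 CPM (SD, n = 3), so Nsd2 f/f replicate 3 brought the genotypes to overlap.

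The GBPs of chromosome 5 rested on the fewest reads. Gbp8 was at 19.7, 9.87 and 0.323 CPM in Nsd2 f/f and at 18.5, 9.15 and 10.2 CPM in Nsd2 Vil-KO. Gbp6 was at 7.43, 10.2 and 0.485 CPM in Nsd2 f/f and at 7.12, 0.888 and 9.25 CPM in Nsd2 Vil-KO. The lowest values rest on 4 counts for Gbp8 and on 6 and 16 counts for Gbp6. Gbp8 was the GTPase least reduced in Nsd2 Vil-KO replicate 2, where its level was close to that in Nsd2 f/f replicate 2 and Nsd2 Vil-KO replicate 3.

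**Figure D2:**
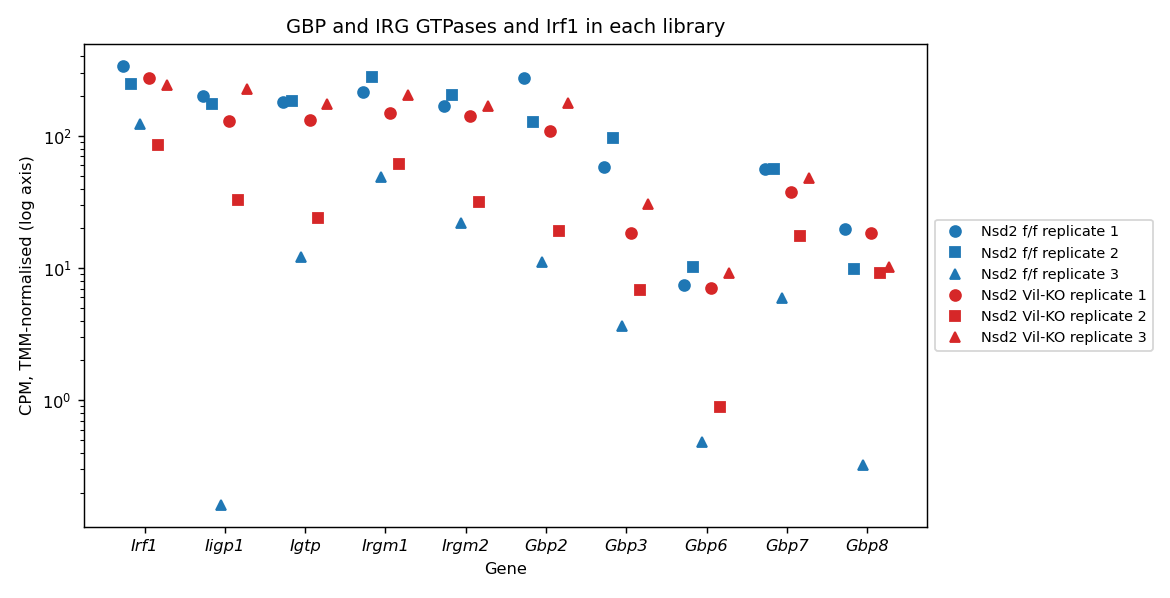
Level of each gene in each library, in TMM-normalised CPM on a log axis. Blue points are the 3 Nsd2 f/f libraries and red points the 3 Nsd2 Vil-KO libraries, with circles, squares and triangles for replicates 1, 2 and 3. The blue triangle is the lowest point of every GTPase, Irf1 is lowest at the red square, and the colours overlap in all 10 genes.

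In all 10 genes the 2 lowest libraries were Nsd2 f/f replicate 3 and Nsd2 Vil-KO replicate 2, an order held by 20.9% of the genes tested. Nsd2 f/f replicate 3 was the lowest library in 9 of 10, against 25.5% of the genes tested. The SD of log2(CPM + 1) over the 6 libraries ran from 0.77 for Irf1 to 2.95 for Iigp1, against 0.34 for the median gene, and placed the 10 genes between the 90.3 and 99.96 percentiles of all tested genes. The mean of the other 4 libraries exceeded Nsd2 f/f replicate 3 by 2.25-fold for Irf1 and by 4.32-fold (Irgm1) to 45.0-fold (Gbp8) for the GTPases other than Iigp1. The same mean exceeded Nsd2 Vil-KO replicate 2 by 1.59-fold for Gbp8, 3.26-fold for Irf1 and at most 9.56-fold, for Gbp6.

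The pair of libraries with Xist also differed from each other. Each of the 9 GTPases had more CPM in Nsd2 Vil-KO replicate 2 than in Nsd2 f/f replicate 3, while Irf1 had less, with a ratio of 0.689 (95% exact interval 0.642 to 0.741). The ratio was 1.24 for Irgm1 (1.13 to 1.38), 1.45 for Irgm2 (1.25 to 1.68), 1.71 for Gbp2 (1.40 to 2.10) and 1.96 for Igtp (1.63 to 2.38). It reached 2.94 for Gbp7 (2.28 to 3.84), 28.3 for Gbp8 (10.9 to 105) and 202 for Iigp1 (55.7 to 1674). That of Gbp6, 1.83, had an interval of 0.681 to 5.71 that includes no difference. These intervals cover counting error only, and with 1 library on each side the difference has no replicate check.

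Levels of different genes can be compared only per length. Per kb of exon union, the mean over the 6 libraries was highest for Igtp at 58.4 CPM per kb, followed by Irf1 at 55.1, Gbp2 at 47.5, Irgm2 at 33.3, Irgm1 at 27.5 and Iigp1 at 21.9. Lower down were Gbp3 at 10.9, Gbp7 at 6.59, Gbp8 at 3.28 and Gbp6 at 0.989 CPM per kb. Neighbours in this order overlapped in their ranges over libraries, and per kb of the longest transcript Irf1 came first, at 103, with Igtp second. Within libraries the top place changed. Gbp2 was highest in Nsd2 f/f replicate 1, Igtp in Nsd2 f/f replicate 2 and Nsd2 Vil-KO replicate 3, and Irf1 in the remaining 3. In Nsd2 f/f replicate 3, Irf1 stood at 31.0 CPM per kb and the next gene, Irgm1, at 8.45. In Nsd2 Vil-KO replicate 2 it stood at 21.4, and Igtp, the next, at 11.9.

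The comparison of genotypes asks whether deletion of Nsd2 in the epithelium goes with another level of these genes during colitis. A gene was called where its fold change exceeded 1.2 and its unadjusted p was below 0.05, as above. None of the 10 genes was called, against 3.29% of all tested genes, and the smallest p among them was 0.171 (Gbp3). At an adjusted p below 0.05, 0 of the 10 and 0 of 14650 genes passed in edgeR, against 0 of the 10 and 4 (0.0273%) of all genes in DESeq2. No gene of the 10 had an unadjusted p below 0.05, and none was called by DESeq2, which called 4.32% of all tested genes, or by limma-voom, which called 9.83%. In each of the 10 the CPM of the genotypes overlapped, while they did not overlap in 9.90% of tested genes. Two-sided exact permutation tests, with 10 ways to split the libraries, gave p from 0.6 to 1, where 0.1 is the smallest possible.

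The log2 fold change (Nsd2 Vil-KO minus Nsd2 f/f) was −0.23 for Irf1 (SE 0.51), 0.04 for Iigp1 (SE 1.44) and −0.39 for Irgm1 (SE 0.65). It was −0.18 for Igtp (SE 0.98), −0.21 for Irgm2 (SE 0.84), −0.43 for Gbp2 (SE 1.07) and −0.21 for Gbp7 (SE 0.74). The standard errors exceeded these differences in every case. Gbp3 had the largest, −1.51 (SE 0.99), while Gbp6 stood at −0.08 (SE 1.00) and Gbp8 at 0.32 (SE 0.94). Adjusted p in edgeR lay between 0.992 and 0.999 for all 10. Of the 10 differences, 8 were negative and 2 positive, where 49.9% of all tested genes were negative. Their median was −0.21, beside 0.0012 for all tested genes. The sign of this median was not stable. It was positive on the log2(CPM + 1) scale (0.026), with a covariate for Xist (0.023), and with Nsd2 f/f replicate 1, Nsd2 f/f replicate 2 or Nsd2 Vil-KO replicate 2 left out (up to 0.18).

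Without the libraries that held Xist, Nsd2 f/f replicates 1 and 2 were compared with Nsd2 Vil-KO replicates 1 and 3. The differences of all 10 genes were then negative, with a median of −0.25. Markers of macrophages and dendritic cells, fibroblasts and neutrophils moved the same way and further in these 4 libraries. Those of T and NK cells moved the same way but less far, by their median. Those of epithelium, B and plasma cells and endothelium were not mostly lower. Of the macrophage and dendritic cell markers 8 of 8 tested were lower in Nsd2 Vil-KO, 5 of them called, with a median of −1.37. All 6 fibroblast markers (median −1.59, 0 called) and all 7 neutrophil markers (median −2.29, 1 called) were lower too. Of 13 T and NK cell markers tested, 9 were lower (median −0.14, 0 called), and of 10 epithelial markers 3 were lower (median 0.14). Of 6 B and plasma cell markers tested 3 were lower (median 0.035), and of 2 endothelial markers 1 was lower (median −0.0055). The part of these markers in the differences of the 10 genes was not tested. Gbp3 was lower in Nsd2 Vil-KO by 1.66 on the log2 scale (−1.66, SE 0.39, adjusted p = 0.375, edgeR) and Gbp7 by 0.39 (−0.39, SE 0.14, adjusted p = 0.406, edgeR). These 2 of 10 passed the screening criterion, while 11.0% of 15030 tested genes passed it, 5.36% as lower and 5.60% as higher. The libraries did not overlap, with Nsd2 Vil-KO lower, for 5 of the 10, namely Gbp3, Gbp7, Igtp, Irgm1 and Irgm2, against 22.6% of tested genes lower and 44.0% in either direction. Irgm1 stood at −0.48 (SE 0.20), Irgm2 at −0.26 (SE 0.14) and Igtp at −0.24 (SE 0.15), short of the criterion. Irf1 (−0.16, SE 0.17), Gbp2 (−0.48, SE 0.51), Iigp1 (−0.08, SE 0.28), Gbp6 (−0.09, SE 0.25) and Gbp8 (−0.04, SE 0.47) did not pass either. Their differences were all smaller than their standard errors, so the negative sign of these genes is uncertain. No gene of the whole table passed an adjusted p below 0.05 with these 4 libraries, against 1671 at an unadjusted p below 0.05. With Xist as a covariate in the 6 libraries, 0 of the 10 were called, against 7.82% of all tested genes, and Gbp3 stood at −0.95.

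**Figure D3:**
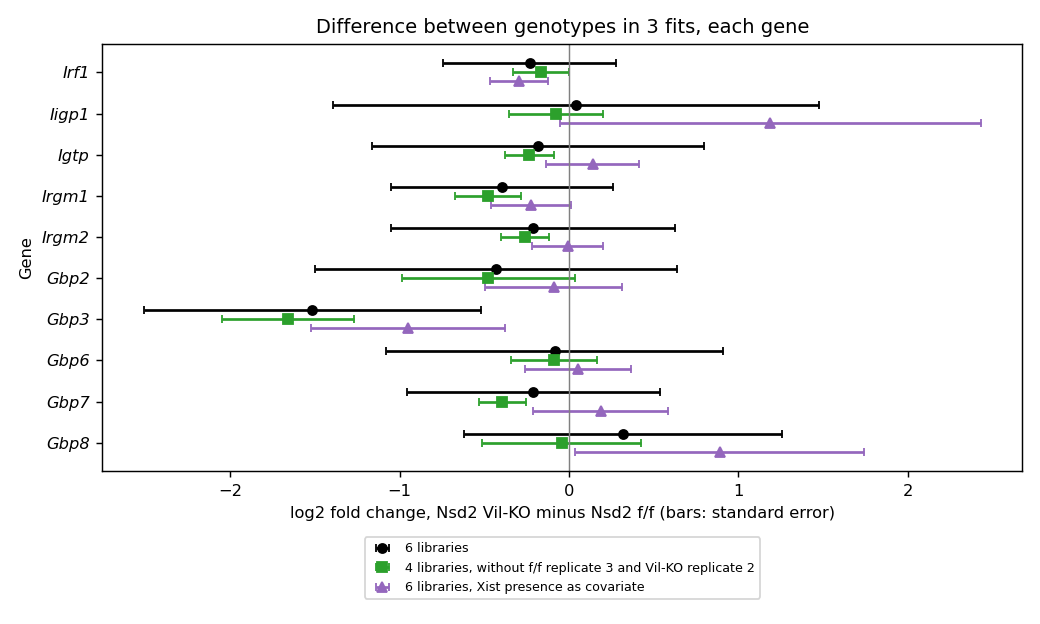
Log2 fold change (x axis, Nsd2 Vil-KO minus Nsd2 f/f) of each gene in 3 edgeR fits, with bars of 1 standard error. Black circles are all 6 libraries, green squares the 4 libraries without Xist transcripts and purple triangles all 6 with a covariate for Xist. All 10 green squares lie at or below 0, that of Gbp3 at −1.66, and the black bars are much wider than the green ones.

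Of 20 other genes of these families, 15 were tested and 0 were called (9 lower, 6 higher, median log2 fold change −0.37). In 14 of the 15 the libraries Nsd2 f/f replicate 3 and Nsd2 Vil-KO replicate 2 were again the 2 lowest. Ifi47 (Irgd) was at 65.8, 88.3 and 1.94 CPM in Nsd2 f/f and at 61.4, 17.4 and 80.4 CPM in Nsd2 Vil-KO. Tgtp1, an effector IRG like Iigp1, was at 24.5, 35.9 and 0.242 CPM in Nsd2 f/f and at 17.4, 2.11 and 49.5 CPM in Nsd2 Vil-KO. Both thus followed the GTPases above, with differences of 0.03 (SE 1.06) and 0.18 (SE 1.32). Gm12250 stood at −0.56 (SE 1.07) and Gm5431 at −0.76 (SE 0.70). The exception was Irgq, a relative of the IRGs that is not known as an interferon target. It was at 25.2, 23.3 and 26.3 CPM in Nsd2 f/f and at 28.0, 35.3 and 35.0 CPM in Nsd2 Vil-KO, so the genotypes did not overlap (0.39, SE 0.18, adjusted p = 0.992, edgeR). In the 4 libraries without Xist, 4 of 16 tested were called lower and 1 higher, against 5.36% lower and 5.60% higher among all genes tested. The lower ones, named after their values were seen, were Gbp9 (−1.28), 9930111J21Rik2 (−1.0), Gm12250 (−0.66) and Gm5431 (−0.66), and Irgq (0.39) was the higher.

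Upstream, transcripts of the ligand were sparse. Ifng had 97, 9 and 0 counts in Nsd2 f/f and 15, 0 and 6 in Nsd2 Vil-KO, which is 4.81 CPM in Nsd2 f/f replicate 1 and at most 0.731 CPM in every other library. The 2 libraries with no Ifng count were those in which the GTPases were lowest, where a count of 0 allows up to 3 counts, 0.242 and 0.166 CPM. Its log2 fold change of −2.39 (SE 1.37, adjusted p = 0.992, edgeR) rests on Nsd2 f/f replicate 1. Without that library it was 0.25 (SE 1.43). The receptor chains did not share this order. Ifngr1 was at 254.7, 268.3 and 426.6 CPM in Nsd2 f/f and at 308.4, 432.4 and 334.3 CPM in Nsd2 Vil-KO, so that the libraries with the least GTPase RNA had the most. Ifngr2 was at 138.9, 146.8 and 239.3 CPM in Nsd2 f/f and at 150.7, 220.1 and 108.7 CPM in Nsd2 Vil-KO, with the same libraries on top. Neither was called, at 0.18 (SE 0.27) and −0.13 (SE 0.33). Ifngr1 was called higher without the Xist libraries (0.31).

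None of the 7 signalling and feedback genes reported here was called. Jak1 lay between 121.5 and 137.1 CPM and Jak2 between 80.8 and 115.7 CPM, with differences of 0.07 (SE 0.15) and 0.20 (SE 0.18). Socs1 was at 67.5, 32.9 and 5.17 CPM in Nsd2 f/f and at 34.2, 14.2 and 71.2 CPM in Nsd2 Vil-KO (0.18, SE 0.86). Socs3 departed from this order, at 260.0, 131.0 and 28.0 CPM in Nsd2 f/f and 179.7, 291.6 and 233.7 CPM in Nsd2 Vil-KO (0.75, SE 0.67), with its highest value in Nsd2 Vil-KO replicate 2. The phosphatases Ptpn2 (−0.21, SE 0.18) and Ptpn11 (0.14, SE 0.18) and the inhibitor Pias1 (0.07, SE 0.18) varied little between libraries, Pias1 between 23.3 and 30.9 CPM.

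**Figure D4:**
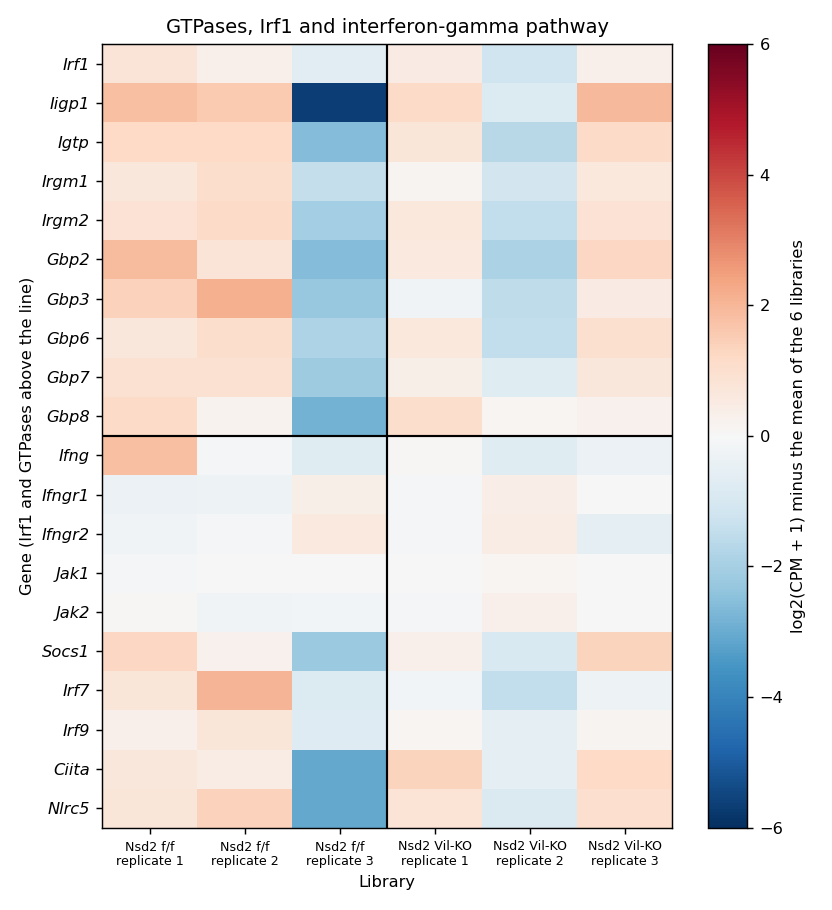
Colour shows log2(CPM + 1) of each gene (rows) in each library (columns) minus that gene's mean over the 6 libraries, red above and blue below. Irf1 and the GTPases stand above the horizontal line, the pathway genes below it, and the vertical line separates the genotypes. The columns of Nsd2 f/f replicate 3 and Nsd2 Vil-KO replicate 2 are blue for Irf1, Socs1 and nearly all GTPases, and pale for Jak1 and Jak2.

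Of 9 factors that act on interferon promoters, 0 were called (6 lower, 3 higher, median −0.07), and 8 had the libraries with Xist as their 2 lowest. Irf7, which amplifies type I interferon, came closest to the threshold, at 251.5, 636.3 and 86.4 CPM in Nsd2 f/f and 138.2, 54.5 and 122.2 CPM in Nsd2 Vil-KO (−1.63, SE 0.70, adjusted p = 0.992, edgeR). It was called without the Xist libraries (−1.76) and with the covariate (−1.41). Without Nsd2 f/f replicate 2, its highest library, it was −0.68 (SE 0.55), and with the replicate block −1.23 (SE 0.83), neither of which was called. Stat2 (−0.74, SE 0.72) and Irf9 (−0.28, SE 0.39), which act together at ISRE elements, did not pass in the 6 libraries, nor did Irf8 (0.16, SE 0.33). Irf9 was called lower without the Xist libraries (−0.40, SE 0.16) but not with the covariate (−0.19, SE 0.20). Without the Xist libraries 2 of the 9 factors were called lower and 1 higher, against 5.36% and 5.60% of all tested genes. Irf2, which competes with Irf1 for ISRE elements, was the exception in order. It had its highest level, 111.2 CPM, in Nsd2 f/f replicate 3 and lay between 52.4 and 63.9 CPM elsewhere. Ciita, the regulator of MHC class II genes, was named after its values were seen. It was at 19.8, 17.1 and 0.566 CPM in Nsd2 f/f and 31.7, 7.66 and 28.9 CPM in Nsd2 Vil-KO, and was called higher without the Xist libraries (0.73) and with the covariate (1.35), opposite in sign to Gbp3.

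Among 21 further IFN-γ-induced genes 0 were called (14 lower, 7 higher, median −0.41), and 14 had the same 2 lowest libraries. Nos2, which makes nitric oxide, was at 502.0, 225.4 and 13.3 CPM in Nsd2 f/f and 413.9, 84.2 and 370.1 CPM in Nsd2 Vil-KO (0.23, SE 1.07). Tap1, the peptide transporter of MHC class I loading, was at 331.2, 358.6 and 36.4 CPM in Nsd2 f/f and 291.7, 143.3 and 347.5 CPM in Nsd2 Vil-KO (0.11, SE 0.75). These resembled the GTPases, whereas Psmb10 and Gsdmd changed less from library to library. The immunoproteasome subunit Psmb10 lay between 192.7 and 261.2 CPM (−0.12, SE 0.20). Gsdmd, the pore protein of pyroptosis, lay between 220.9 and 365.8 CPM (0.10, SE 0.24). Sectm1b had its highest level, 456.0 CPM, in Nsd2 f/f replicate 3 (−0.71, SE 0.46). In the 4 libraries without Xist, Zbp1 alone of the 21 was called, lower by 0.72 on the log2 scale. In that fit 5.36% of all tested genes were called lower and 5.60% higher.

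The 5 lists of other family genes, ligand and receptor, signalling, factors and effectors held 61 genes together, of which 56 were tested and 0 were called, 33 lower and 23 higher, with a median of −0.19. In the 4 libraries 8 were called lower and 3 higher of 57 tested, where 5.36% of all tested genes were called lower and 5.60% higher. The 2 libraries with Xist were the lowest for 40 of the 56, against 20.9% of all tested genes. Of 10 proteins that work with IRGs and GBPs at vacuoles, such as the autophagy conjugation enzymes Atg5, Atg3, Atg7 and Atg16l1, 0 were called (6 lower, 4 higher, median −0.06). Of these, 2 had those 2 lowest libraries, near the share among all tested genes.

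The genes whose profile over the 6 libraries lay nearest to the mean profile of the 10 were found by Euclidean distance between standardised log2 CPM. Within the 10, Igtp was nearest to this mean (0.18) and Gbp8 farthest (1.31), with Irf1 at 1.08. Outside the 10, the nearest were Rbm15 (0.155), an RNA-binding protein, BC055324 (0.183), Mcm6 (0.183), a subunit of the replicative helicase, Gm12250 (0.237), an IRG, and Pip4k2b (0.237), a lipid kinase. Rbm15 moved over a far smaller range than the GTPases, from 15.0 to 23.5 CPM. Mcm6 was at 92.7, 99.7 and 31.3 CPM in Nsd2 f/f and 82.4, 41.8 and 91.5 CPM in Nsd2 Vil-KO. The distance ignores the size of the change, and the 6 points share the 2 libraries that stand apart.

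The summed markers of some other cell types were lowest in the same 2 libraries as the GTPases, and those of others were not. In bulk RNA, fewer cells of a type and less RNA per cell cannot be told apart. Each of 10 epithelial markers, among them Epcam and Vil1, was present in each library, and their summed level was 16053 to 26088 CPM, so the labelled tissue was borne out by its markers. The sum was highest in Nsd2 f/f replicate 3 and Nsd2 Vil-KO replicate 2 (26088 and 25766 CPM). The summed level of 14 T and NK cell markers was 40.8, 37.5 and 14.7 CPM in Nsd2 f/f and 47.4, 22.7 and 22.1 CPM in Nsd2 Vil-KO, with Ncr1 at 0 in 4 libraries and Cd4 at 0 in Nsd2 f/f replicate 3. That of 10 macrophage and dendritic cell markers was 225.1, 81.2 and 11.0 CPM in Nsd2 f/f and 84.5, 18.7 and 34.9 CPM in Nsd2 Vil-KO, with the 2 lowest values in the libraries where the GTPases were lowest. In Nsd2 f/f replicate 3, Adgre1, Flt3 and Xcr1 were at 0. The sum of 6 fibroblast markers was lowest in the same 2 libraries (5.82 and 5.05 CPM, against 15.5 to 262.8 CPM). So was that of 7 B and plasma cell markers (10.6 and 6.21 CPM, against 16.3 to 49.9 CPM). Gene by gene, they were the 2 lowest for 7 of 8 tested macrophage and dendritic cell markers and 5 of 6 fibroblast markers. The count was 1 of 6 for B and plasma cells, 2 of 12 for T and NK cells and 1 of 7 for neutrophils, against 20.9% of all tested genes. Summed neutrophil markers (7 genes) did not follow, at 206.6 CPM in Nsd2 f/f replicate 3 and 2355 CPM in Nsd2 Vil-KO replicate 2, against 197.8 to 897.0 CPM elsewhere. Endothelial markers (5 genes) summed to 4.93 to 7.15 CPM. The part of these cells, of the mitochondrial share and of Xist in the levels of the GTPases was not tested.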

How the data were processed

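RNA-seq of colon IECs from DSS-treated mice was analysed in 6 libraries, grouped by genotype and numbered by replicate from the sample labels. Per the methods, the authors aligned reads to GRCm38 with HISAT2, and the deposited table holds their unnormalised read counts per Ensembl gene. The counting program, its use of strand and the handling of reads with several matches are not given in the sources used here, and the labels and methods name different library kits. Genes that overlap or resemble each other can therefore share reads. Every sample column was used, and 0 columns of other samples were left out.

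For the tests, edgeR 4.0.16 was run in R 4.3.3 (TMM, filterByExpr by genotype, quasi-likelihood test with robust estimation, no covariates, Benjamini-Hochberg adjustment over 14650 genes). A gene was called at a fold change above 1.2 and p below 0.05, and separately at an adjusted p below 0.05. CPM used TMM library sizes of the 15439123 to 20350539 reads counted per library. The biological coefficient of variation was 41.2%. The whole table was fitted and the test was tried on simulated counts. Exact permutation tests used the 10 splits of 6 libraries, on log2(CPM + 1). Ratios of single libraries have 95% exact intervals for counting error only. Exon overlaps and lengths came from GENCODE vM21, in which 99.5% of listed genes were found, and promoters from RefSeq.

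The 10 genes and the gene lists were chosen with earlier results of these data known, so no list was given a test. The rule for named genes took Nsd2, the 10 genes, the IFN-γ ligand, receptor and signalling genes, the 5 genes of highest mean CPM in each list of other family genes, factors and effectors where fewer than 5 were called, and the 5 genes nearest in profile with at least 1 CPM on average. A gene that the rule names is not reported here, and it is counted only in the totals over lists. Others are said to be named after their values were seen. Same-numbered libraries did not deviate together (correlations 0.29, −0.38 and −0.17), so the numbers were not taken as pairs. Alternatives covered normalisation, filter, tool (DESeq2 1.42.0, limma 3.58.1), criterion, replicate block, Xist as a covariate, mitochondrial genes left out, the 4 libraries without Xist and each library left out. Figures were drawn with matplotlib 3.10.9.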

Additional observations from a re-analysis of the deposited data

How the results depend on the processing

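The count of 0 of the 10 genes called held under other normalisation, filters, tools and criteria, with a replicate block and with a covariate for Xist. It was 2 in the 4 libraries without Xist, where 11.0% of all tested genes were called, and 0 to 1 with single libraries left out. The 1 was Gbp3 without Nsd2 f/f replicate 3, where 3.38% of all tested genes were called. The median difference of the 10 changed sign on the log2(CPM + 1) scale (0.026) and with the covariate for Xist (0.023), and ran from −0.71 to 0.18 with single libraries left out. Of the 61 genes in the 5 lists, 56 were tested in the main fit and 57 in the 4 libraries. Their calls follow, with the share of all tested genes called in the same fit in brackets. There was 1 by DESeq2 (4.32%), 1 by edgeR without robust estimation (3.36%) and 2 by limma-voom with quality weights (9.83%). There were 7 with the covariate (7.82%), 11 in the 4 libraries (11.0%) and 0 to 4 with single libraries left out (2.14% to 5.08% over these fits). The 4 came without Nsd2 f/f replicate 3 (3.38%), and the fit without Nsd2 Vil-KO replicate 2 (5.08%) gave 0. Differences of single genes changed sign on the log2(CPM + 1) scale for Gbp6 (0.056), Gbp7 (0.20) and Igtp (0.14), and with the covariate for Gbp6 (0.054), Gbp7 (0.19) and Igtp (0.14). In the 4 libraries those of Gbp8 (−0.043) and Iigp1 (−0.078) became negative. With the replicate block 0 of the 10 were called, their median was −0.09, Gbp6 (0.0031) and Gbp7 (0.060) became positive, and the block changed no call among the 10. With single libraries left out, Irf1 ran from −0.54 to 0.14, Iigp1 from −0.63 to 0.56, Igtp from −0.72 to 0.29, Irgm1 from −0.84 to 0.062, Irgm2 from −0.71 to 0.27, Gbp2 from −1.09 to 0.55, Gbp6 from −0.60 to 0.50, Gbp7 from −0.71 to 0.14 and Gbp8 from −0.23 to 1.27. Over the same omissions Ifng ran from −3.51 to 0.25 and Socs1 from −0.54 to 1.06, while Gbp3 stayed negative, from −2.07 to −0.73. Calls among all genes numbered 482, and 861 without a filter on low counts, 303 with the block, 1440 by limma-voom, 769 without Nsd2 Vil-KO replicate 2, 1145 with the covariate and 1646 in the 4 libraries. The causes of these changes were not tested. A minimum of 10 counts in each library left out Gbp6, Gbp8 and Iigp1. A count of 0 in one library allows up to 0.146 to 0.242 CPM, which limits Ifng and the lowest value of Iigp1.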
